A study of Mus musculus with 16 samples.

Results

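Clade B serpins are a family of intracellular protease inhibitors, and 10 of them that squamous epithelium is known for were followed here in mouse esophagus: Serpinb1a, Serpinb2, Serpinb3a, Serpinb3b, Serpinb3c, Serpinb3d, Serpinb5, Serpinb11, Serpinb12 and Serpinb13. They were taken by gene name, 10 of the 41411 genes in the deposited table, which holds 26 clade B serpins in all. RNA was measured by CEL-Seq, in which each molecule is read by a short tag near its 3' end, in 16 esophagus libraries of C57BL/6 mice. The libraries formed 4 groups of 4: WT mice given vehicle, WT mice given OXA (oxazolone, a skin-sensitising hapten used here to model eosinophilic esophagitis), Il13ra1-/- mice given vehicle and Il13ra1-/- mice given OXA. Il13ra1 encodes a chain of the type II IL-4 receptor, through which IL-13 signals, and Il13ra1-/- is written KO from here on. The knockout is not said to be limited to any cell type. No age, sex, batch, dose or time was given, and nothing but the codes in the titles says that the libraries came from separate animals, so p-values measure the spread between these libraries.

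A serpin offers a protease a bait, the reactive centre loop, and is cut; an inhibitory serpin then folds around the cut and holds the protease in a dead complex. Clade B members lack a classical signal peptide and act mostly inside cells, where several of them are thought to guard stratified epithelium against its own lysosomal and serine proteases and against those of incoming leukocytes. The mouse Serpinb3 genes are relatives of the human squamous cell carcinoma antigens SERPINB3 and SERPINB4, which are induced by IL-4 and IL-13 in cultured human keratinocytes and airway cells and are used as serum markers of allergic skin disease.

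Of the 10 members, 9 lie in 1 block on chromosome 1 (chr1:106861173-107610484, GRCm38, 749.3 kb from the start of Serpinb5 to the end of Serpinb8), with Serpinb7 and Serpinb8 as the block's other clade B serpins in the deposited table. Serpinb10, annotated there as a polymorphic pseudogene (chr1:107529003-107549271, plus strand), overlaps the end of Serpinb2 and is not in the deposited table. The remaining member, Serpinb1a, lies on chromosome 13 (chr13:32842092-32851185). All 10 members are protein-coding, and their coordinates in the deposited table are those of GENCODE M21. RefSeq promoters (GRCm38.p6) were matched for 8 of the 10, all but Serpinb13 and Serpinb1a. The 250 bases before the RefSeq start of 5 of them are printed, 5' to 3' on the gene's strand, because they show how closely the Serpinb3 copies resemble each other, beside the windows of Serpinb12 and Serpinb5, the members whose values were most correlated with those of Serpinb3a. Capitals mark an AP-1 motif (TGANTCA) or a TATA motif (TATAAA), searched on both strands.
Serpinb3a, chr1:107052304-107052553, minus strand: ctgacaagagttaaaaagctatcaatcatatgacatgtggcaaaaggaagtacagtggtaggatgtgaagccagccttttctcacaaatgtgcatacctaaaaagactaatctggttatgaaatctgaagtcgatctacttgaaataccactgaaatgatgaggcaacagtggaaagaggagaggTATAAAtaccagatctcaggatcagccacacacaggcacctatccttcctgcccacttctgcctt
Serpinb3b, chr1:107161115-107161364, minus strand: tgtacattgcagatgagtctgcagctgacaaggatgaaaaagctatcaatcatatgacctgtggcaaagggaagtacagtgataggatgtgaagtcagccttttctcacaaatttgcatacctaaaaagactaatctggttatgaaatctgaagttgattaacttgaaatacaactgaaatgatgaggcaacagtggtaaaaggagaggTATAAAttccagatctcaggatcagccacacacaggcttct
Serpinb3c, chr1:107278372-107278621, minus strand: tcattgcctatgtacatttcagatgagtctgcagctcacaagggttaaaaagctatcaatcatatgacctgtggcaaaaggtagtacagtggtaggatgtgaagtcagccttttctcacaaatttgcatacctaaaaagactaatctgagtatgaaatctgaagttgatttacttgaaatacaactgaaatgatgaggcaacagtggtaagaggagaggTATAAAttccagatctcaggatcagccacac
Serpinb12, chr1:106934199-106934448, plus strand: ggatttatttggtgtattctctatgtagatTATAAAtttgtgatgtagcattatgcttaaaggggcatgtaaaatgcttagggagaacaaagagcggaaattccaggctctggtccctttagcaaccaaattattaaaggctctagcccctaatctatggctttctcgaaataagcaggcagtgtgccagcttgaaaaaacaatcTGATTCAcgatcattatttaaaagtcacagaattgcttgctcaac
Serpinb5, chr1:106860925-106861174, plus strand: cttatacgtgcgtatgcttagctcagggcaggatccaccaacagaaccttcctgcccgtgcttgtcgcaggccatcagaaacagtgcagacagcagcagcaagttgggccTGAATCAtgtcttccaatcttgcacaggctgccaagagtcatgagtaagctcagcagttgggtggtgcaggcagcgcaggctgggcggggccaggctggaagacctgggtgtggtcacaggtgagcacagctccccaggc
Identity is given over all alignment columns, with gaps counted as differences. The Serpinb3b and Serpinb3c windows were identical at 88.1%, Serpinb3a and Serpinb3b at 77.0% and Serpinb3a and Serpinb3c at 71.5%. The Serpinb3d window matched those of its paralogs at 44.4% to 48.1%. The windows end at different RefSeq starts, so bases left unpaired by that offset count as gaps and lower these values. Each of the 4 Serpinb3 windows held 1 match to the TATA letters, 65, 41, 31 and 40 bases before the start in Serpinb3a, Serpinb3b, Serpinb3c and Serpinb3d. In Serpinb3a, Serpinb3b and Serpinb3c the letters TATAAA lay on the gene's strand. In Serpinb3d they lay on the opposite strand (TTTATA on the gene's strand), so that match is not the motif of its paralogs. The Serpinb12 window held an AP-1 motif 45 bases and a TATA motif 220 bases before its start, and the Serpinb5 window an AP-1 motif at 140 bases. Serpinb2 held an AP-1 motif at 94 bases and a TATA motif at 29, and Serpinb11 held AP-1 motifs at 181 and 76 bases. Among all 32851 RefSeq promoters cut to the same length, 6.75% held the AP-1 letters and 12.37% the TATA letters. Neither the STAT letters TTCNNNGAA (7.02% of promoters) nor the STAT6 motif, the same outer letters with 1 more base between them (5.85%), were in any of the 8 members' windows.

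The Serpinb3 family carries a limit of counting that may touch its values, by an amount that is not known. Over the coding sequence Serpinb3a was identical to Serpinb3b at 92.9% of alignment columns (gaps counted as differences), to Serpinb3c at 91.3% and to Serpinb3d at 89.2%. Members outside the family were identical to each other and to it at 50.4% to 61.7%. In the last 500 bases of the transcript, where CEL-Seq tags fall, 1.33% of 50-base words of Serpinb3a, 7.10% of Serpinb3b, 5.76% of Serpinb3c and 7.32% of Serpinb3d were also found in another clade B gene, and none were for the other 6 members. The gene span of Serpinb3c lies almost wholly inside that of Serpinb3b (99.4% of its exonic bases), but only 35 of its 1659 exonic bases (2.11%) overlap Serpinb3b exons. How reads that fit more than 1 copy were treated is not given in the sources used here, so Serpinb3a and Serpinb3b are given as counted and also as a sum over the 4 genes.

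The targeted gene, Il13ra1, had normalised counts of 207, 226, 197 and 134 in WT vehicle and 31.2 to 64.7 in KO vehicle libraries, and 584 to 874 in WT OXA and 44.0 to 174 in KO OXA libraries. Every KO library was thus below every WT library given the same treatment. Depth recovered from the deposited values was 5.61 to 9.55 M reads (M, 1e6) in WT vehicle, 20.2 to 27.3 in WT OXA, 7.91 to 16.5 in KO vehicle and 8.82 to 15.2 in KO OXA libraries, so WT OXA was the deepest group. The totals after the authors' scaling ran the other way, at 9.92 to 10.9 M in WT OXA against 11.98 to 16.2 M in the other 3 groups. Suprabasal and cornified keratinocyte genes, the layers these serpins are mostly known from, were in the table for 12 of 12 listed genes, and 9 of them had tags in every library. Crnn was at 0 in 10 of 16 libraries and was not tested, and Ivl and Flg were each at 0 in 1 library. Libraries ran high or low for the members as a whole: KO OXA replicate 4 was the lowest of its group for all 8 detected members, WT vehicle replicate 2 the highest of its group for all 8, KO vehicle replicate 3 the lowest for 7 and KO vehicle replicate 4 the highest for 7. Each library was left out in turn, and the counts without KO OXA replicate 4 are given where they differ most from the full fit. That library was noticed by its low values for these same genes, so leaving it out raises the KO OXA level by construction, and those counts describe how far 1 library matters and support nothing. Replicate numbers only name libraries.

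Unless another tool is named, tests were limma on log2(normalised count + 1) over all 16 libraries, two-sided, with Benjamini-Hochberg adjustment over the 16748 genes that reached a normalised count of 5 in at least 4 libraries, and a gene passed at an adjusted p under 0.05. Of the 10 members, 8 reached that level. Serpinb3c and Serpinb3d had 0 reads in all 16 libraries, which with 3 reads as the floor allows up to 0.0981 reads per M reads in the summed WT vehicle libraries and 0.0322 in the WT OXA libraries (counting error only). Fold changes are differences of the mean log2(normalised count + 1), ± SE.

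With OXA, part of the family fell in WT esophagus, while in KO esophagus all fitted changes were above 0 and none passed. In WT, 4 of the 8 tested members fell and none rose: Serpinb13, Serpinb12, Serpinb3a and Serpinb5. Over all genes tested, 16% fell and 18% rose, and the members' median log2 change was -0.66 against 0.10 for all genes. In bulk tissue, fewer cells of a type and less RNA per cell cannot be told apart, which holds for each value given here. In WT OXA libraries 7 of 11 tested suprabasal and cornified genes also fell and none rose. The summed normalised count of the 12 listed ones was 483069 to 780651 against 1421708 to 2095518 in WT vehicle. Krt4 made up most of that sum, at 290427 to 498260 against 926888 to 1440621. Its own change did not pass (-1.75 ± 0.68, adjusted p = 0.0532). The part of these genes in the serpin values was not tested.

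**Figure D1:**
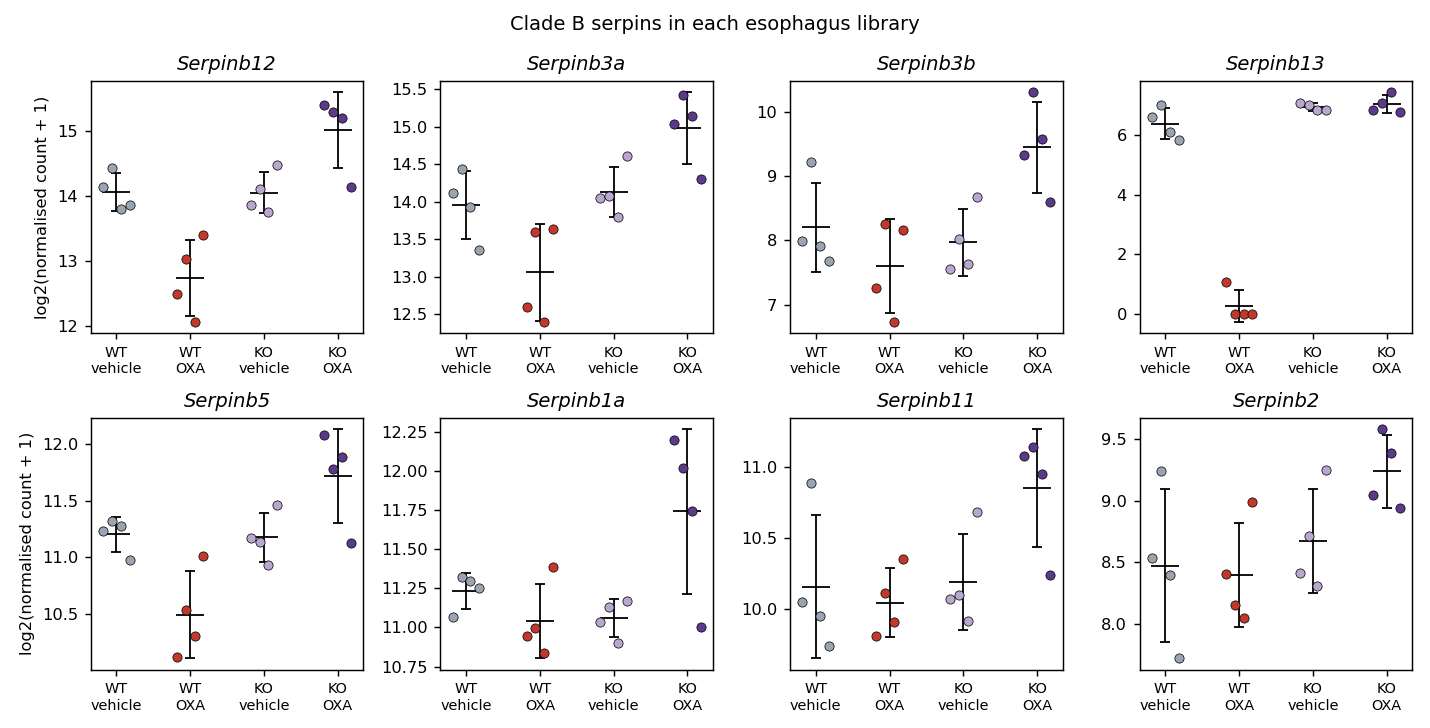
Log2(normalised count + 1) of the 8 detected members (vertical axis, its own scale in each panel) in every library, by group on the horizontal axis; points are single libraries, the horizontal mark is the group mean and the bars are ± SD (n = 4). Serpinb13 lies at 0 in 3 of 4 WT OXA libraries and KO OXA replicate 4 (the last point of each panel) is the lowest of its group throughout.

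Serpinb13, known as headpin or hurpin and an inhibitor of cathepsins L and K, had the largest change of the 8. WT vehicle libraries had normalised counts of 97.8, 128, 67.5 and 55.7. WT OXA libraries had 1.09, 0, 0 and 0. KO vehicle libraries had 135, 128, 113 and 115, and KO OXA libraries had 114, 136, 172 and 109. The WT OXA group was thus apart from the other 3, which overlapped one another, with the WT vehicle libraries reaching lower. The mean fell from 87.3 ± 32.5 to 0.272 ± 0.545 (SD, n = 4) with OXA in WT, a log2 change of -6.13 ± 0.34 (limma, adjusted p = 1.19e-10). Because so few reads remained, the size of that change depends on the pseudocount, and the reads give it directly. There were 3 reads in 93.2 M over the WT OXA libraries against 216 in 30.6 M over the WT vehicle libraries, a ratio of their shares of 220 (95% interval 74.1 to 1073, counting error only). That interval takes each pooled read as separate and leaves out the spread between libraries. All 3 WT OXA reads came from replicate 1. In KO the change with OXA was 0.09 ± 0.34 (95% interval -0.62 to 0.80, adjusted p = 0.938), and the effects differed between the genotypes by 6.21 ± 0.48 (adjusted p = 4.61e-08).

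Serpinb12, an inhibitor of trypsin-like serine proteases, was, with Serpinb3a, one of the pair of members that took most of the family's tags. WT vehicle libraries had normalised counts of 18025, 22226, 14257 and 14920, and WT OXA libraries 5760, 8350, 4302 and 10786. KO vehicle libraries had 14943, 17675, 13884 and 22834, and KO OXA libraries 43219, 40347, 37745 and 18145. All 4 WT OXA libraries were below all 4 WT vehicle libraries, whereas in KO the OXA libraries 1 to 3 were above every vehicle library and replicate 4 fell among them. The log2 change with OXA was -1.31 ± 0.29 in WT (2.49-fold lower, adjusted p = 0.00193) and 0.96 ± 0.29 in KO (adjusted p = 0.118). The difference between these effects was 2.27 ± 0.42 (adjusted p = 9.94e-04). Serpinb13 and Serpinb12 were 2 of 8 members whose WT OXA libraries all lay below the WT vehicle libraries, where 15.7% of all genes did.

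Serpinb3a, the most counted of the Serpinb3 genes and a relative of the human inhibitors of papain-like cysteine proteases, was likewise lowest on average in WT OXA and highest in KO OXA, with more overlap between libraries. WT vehicle libraries had normalised counts of 17685, 22087, 15571 and 10494, and WT OXA libraries 6200, 12403, 5425 and 12743. KO vehicle libraries had 16913, 17222, 14290 and 24900, and KO OXA libraries 33610, 44042, 36125 and 20288. WT OXA replicates 2 and 4 exceeded WT vehicle replicate 4, and KO OXA replicate 4 was below KO vehicle replicate 4. The log2 change was -0.90 ± 0.31 in WT (adjusted p = 0.0301), 0.85 ± 0.31 in KO (adjusted p = 0.207), and the effects differed by 1.74 ± 0.44 (adjusted p = 0.00914). The WT call rested on single libraries: without WT vehicle replicate 1, 2 or 3, or WT OXA replicate 1 or 3, the adjusted p was 0.0550 to 0.122. It was also lost with equal library totals (-0.58, adjusted p = 0.115), quantile normalization (-0.35, adjusted p = 0.405) and no filter on low genes (adjusted p = 0.0727), and the difference of effects was lost with quantile normalization (0.96, adjusted p = 0.138).

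Serpinb3b, the closest tested paralog of Serpinb3a, was counted at 92 to 1063 reads per library. WT vehicle libraries had normalised counts of 255, 600, 239 and 205, and WT OXA libraries 152, 304, 106 and 286. KO vehicle libraries had 186, 259, 197 and 410, and KO OXA libraries 644, 1266, 765 and 385. WT vehicle replicate 2 and KO OXA replicate 2 were each the highest of their group by a wide margin, and the groups overlapped within both genotypes. The change did not pass in WT (-0.60 ± 0.39, adjusted p = 0.248) or in KO (1.48 ± 0.39, adjusted p = 0.0554), and the difference between the 2 effects did (2.09 ± 0.55, adjusted p = 0.0128). Summed over Serpinb3a to Serpinb3d, the counts gave -0.89 ± 0.31 in WT (adjusted p = 0.0319), 0.86 ± 0.31 in KO (adjusted p = 0.203) and a difference of 1.75 ± 0.44 (adjusted p = 0.00925). The sum is nearly all Serpinb3a, so it repeats that gene's values.

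Serpinb5, known as maspin and not an inhibitor of proteases, also fell in WT. WT vehicle libraries had normalised counts of 2404, 2559, 2474 and 2012, and WT OXA libraries 1109, 1482, 1261 and 2061. KO vehicle libraries had 2303, 2245, 1952 and 2826, and KO OXA libraries 4333, 3517, 3780 and 2229. Only WT OXA replicate 4 reached the WT vehicle range. The log2 change was -0.71 ± 0.20 in WT (adjusted p = 0.0105), 0.54 ± 0.20 in KO (adjusted p = 0.218), and the effects differed by 1.25 ± 0.29 (adjusted p = 0.00520). With equal library totals the WT change was -0.39 (adjusted p = 0.0719). On that scale 2 of 8 members fell, Serpinb13 and Serpinb12, where 8.88% of all genes did and where the median over all genes moved up by 0.31 and the share of calls that were higher from 53% to 77.4%.

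Serpinb1a, whose human counterpart inhibits neutrophil elastase, cathepsin G and proteinase 3, did not pass in either genotype, but its effects differed between them. WT vehicle libraries had normalised counts of 2142, 2561, 2514 and 2436, and WT OXA libraries 1972, 2044, 1827 and 2672. KO vehicle libraries had 2094, 2245, 1911 and 2303, and KO OXA libraries 4707, 4146, 3436 and 2055. WT vehicle, WT OXA and KO vehicle libraries overlapped, and KO OXA replicates 1 to 3 were above all of them. The difference of effects was 0.88 ± 0.28 (adjusted p = 0.0342), from -0.19 ± 0.20 in WT and 0.68 ± 0.20 in KO (adjusted p = 0.483 and 0.0888). That call was lost in 11 of 16 fits without 1 library (adjusted p = 0.05002 to 0.0760). It held only without replicate 1 or 4 of WT vehicle or replicate 4 of any other group, the smallest p being 8.51e-04 without KO OXA replicate 4. It was also lost with no filter (adjusted p = 0.0645), with equal library totals (0.43, adjusted p = 0.188) and with quantile normalization (0.51, adjusted p = 0.127).

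Serpinb11 and Serpinb2 had the smallest changes with OXA in WT. Serpinb11, whose mouse form inhibits trypsin-like proteases, had mean normalised counts of 1199 ± 469 with vehicle and 1067 ± 183 with OXA in WT, and of 1194 ± 304 and 1897 ± 472 in KO (SD, n = 4). Serpinb2, known as plasminogen activator inhibitor 2, an inhibitor of urokinase that is induced by IL-13 in human airway epithelium, had 380 ± 165, 348 ± 111, 421 ± 133 and 613 ± 127 in the same order. Their WT changes were -0.11 ± 0.24 (95% interval -0.61 to 0.38) and -0.07 ± 0.28 (95% interval -0.65 to 0.51), with adjusted p of 0.751 and 0.867. Neither passed in KO (0.66 ± 0.24 and 0.57 ± 0.28, adjusted p = 0.2002 and 0.364), nor did the difference of effects (0.77 ± 0.33 and 0.64 ± 0.39, adjusted p = 0.119 and 0.280).

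**Figure D2:**
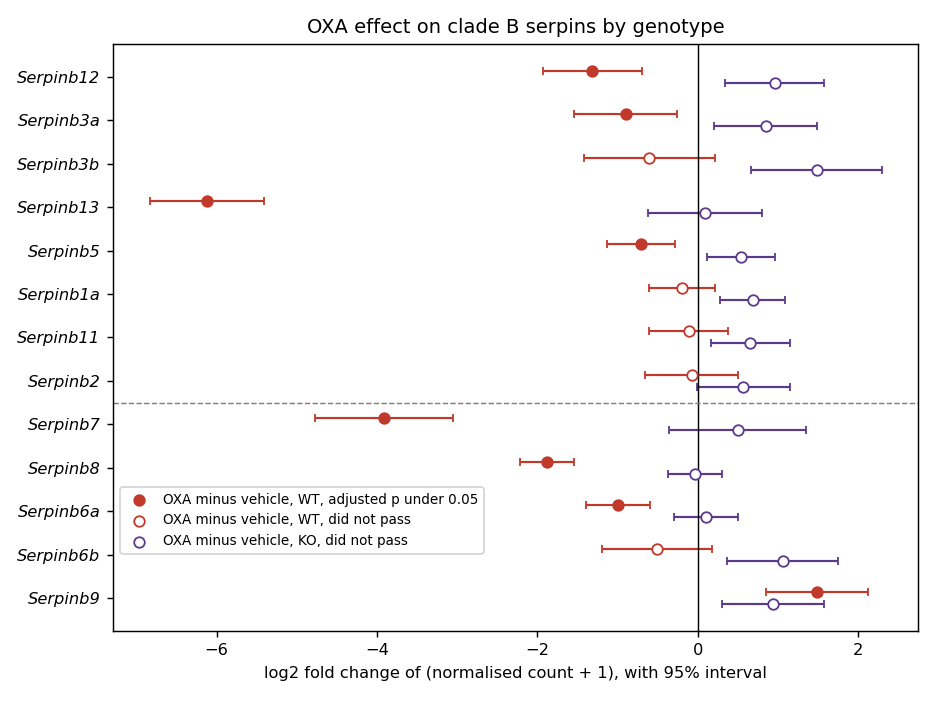
Log2 fold change of OXA against vehicle (horizontal axis) for the 8 tested members, above the dashed line, and 5 other clade B serpins, below it, in WT (red) and KO (purple); bars are 95% intervals from limma, filled points passed an adjusted p under 0.05 and open points did not. No KO point is filled, and the WT point lies to the left of the KO point for every gene shown except Serpinb9.

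In KO the OXA effect passed for none of the 8 members by limma, where 1.81% of all genes rose. All 8 fitted changes were above 0, from 0.09 (Serpinb13) to 1.48 (Serpinb3b), with a median of 0.67 against -0.01 for all genes. On the recovered reads, edgeR called 1 member higher (Serpinb3b, 2.23% of all genes) and DESeq2 called 3 (Serpinb1a, Serpinb3b and Serpinb12, 4.42% of all genes). Without KO OXA replicate 4, the library lowest for these very genes, limma called 6 members higher (5.3% of all genes), a count that this choice of library pushes upward: Serpinb3b by 1.77 (adjusted p = 0.0102), Serpinb12 by 1.25 (adjusted p = 0.00765), Serpinb3a by 1.07 (adjusted p = 0.0414), Serpinb1a by 0.93 (adjusted p = 0.00120), Serpinb11 by 0.86 (adjusted p = 0.0295) and Serpinb5 by 0.74 (adjusted p = 0.0206). Macrophage and monocyte genes rose in this comparison too (8 of 10, none fell). Their summed normalised count was 4244 to 6375 in KO vehicle and 9223 to 22775 in KO OXA, with replicate 4 at 9223, the lowest of its group, and their part in the serpin values was not tested. The summed suprabasal count of KO OXA replicates 1 to 4 was 3003114, 1422082, 2137064 and 1675726. Krt4 alone gave 2141300, 989961, 1487276 and 1129114 of it, so the sum mostly follows that gene. The library lowest for the serpins was not the lowest for this sum, whose part in the serpin values was not tested.

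The difference between the 2 OXA effects, KO minus WT, passed for 6 of 8 members, all with the higher value in KO, where 10.1% of all genes did so: Serpinb13, Serpinb12, Serpinb3b, Serpinb3a, Serpinb5 and Serpinb1a. The members' median difference was 1.498 against -0.10 for all genes. Over the 16 fits without 1 library, 5 to 7 passed, and over 9 other settings 4 to 6 did. The 4 came with quantile normalization, which lost Serpinb3a and Serpinb1a. On that scale 1656 of 16748 genes passed with the higher value in KO. The count of 7, with Serpinb11 added (0.97, adjusted p = 0.0328), came without KO OXA replicate 4, which raises the difference by construction. With equal library totals the median over all genes itself moved by -0.43, and the share of calls with the higher value in KO went from 56.9% to 20.3%. On that scale 5.25% of all genes passed with the higher value in KO, and 5 of 8 members did.

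With vehicle, the genotypes were close. KO minus WT passed for 0 of 8 members in limma, edgeR and DESeq2, 0 had an unadjusted p under 0.05 in limma, and 0.0597% of all genes passed in either direction. Fitted differences ran from -0.23 (Serpinb3b, 95% interval -1.05 to 0.58) to 0.56 (Serpinb13, 95% interval -0.15 to 1.27). For Serpinb12 the difference was -0.01 ± 0.29 (95% interval -0.62 to 0.61) and for Serpinb3a 0.17 ± 0.31 (95% interval -0.47 to 0.82).

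Under OXA, 8 of 8 members were higher in KO than in WT, where 14.6% of all genes were, and in 5 of them (Serpinb13, Serpinb12, Serpinb3a, Serpinb3b and Serpinb5) every KO library was above every WT library, as in 14% of all genes. This comparison shares its libraries with both OXA effects and is not separate from them. Serpinb13 was higher by 6.77 ± 0.34 (adjusted p = 2.26e-11). Its reads were 453 in 46.3 M over the KO OXA libraries against 3 in 93.2 M over the WT OXA libraries, a ratio of their shares of 304. Its 95% interval was 103 to 1481, from counting error only over pooled reads, without the spread between libraries. Serpinb12 was higher by 2.27 ± 0.29, Serpinb3a by 1.92 ± 0.31, Serpinb3b by 1.85 ± 0.39 and Serpinb5 by 1.23 ± 0.20 (adjusted p = 1.14e-05, 1.10e-04, 0.00134 and 1.43e-04). Serpinb2 (0.84 ± 0.28), Serpinb11 (0.80 ± 0.24) and Serpinb1a (0.70 ± 0.20) passed with adjusted p of 0.0289, 0.0151 and 0.0110 (Serpinb1a 0.0589 with quantile normalization). With equal library totals these 3 did not pass (adjusted p = 0.237, 0.168 and 0.187), which left 5 of 8 higher against 7.55% of all genes. For Serpinb2, the call also ended without WT OXA replicate 1, 2 or 3, and likewise without replicate 2 or 3 of the KO OXA group (adjusted p = 0.0547 to 0.0963), and with no filter (adjusted p = 0.0571).

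Together the members took 0.315% ± 0.068 of a WT library's normalised counts with vehicle and 0.209% ± 0.066 with OXA, and 0.334% ± 0.069 and 0.570% ± 0.163 of a KO library's (SD, n = 4). CEL-Seq reads 1 tag near the 3' end per molecule and so is not scaled by length, and these shares are of tags. Serpinb12 and Serpinb3a made up most of the sum in every group. Serpinb12 was 43.0% ± 3.6 of it with vehicle and 33.3% ± 2.4 with OXA in WT, and 41.1% ± 1.4 and 43.8% ± 3.5 in KO. Serpinb3a was 40.1% ± 4.3, 41.5% ± 4.6, 43.4% ± 1.5 and 42.8% ± 3.7 in the same order. Serpinb1a was 6.17% ± 1.42 of the sum in WT vehicle and 10.4% ± 2.4 in WT OXA.

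**Figure D3:**
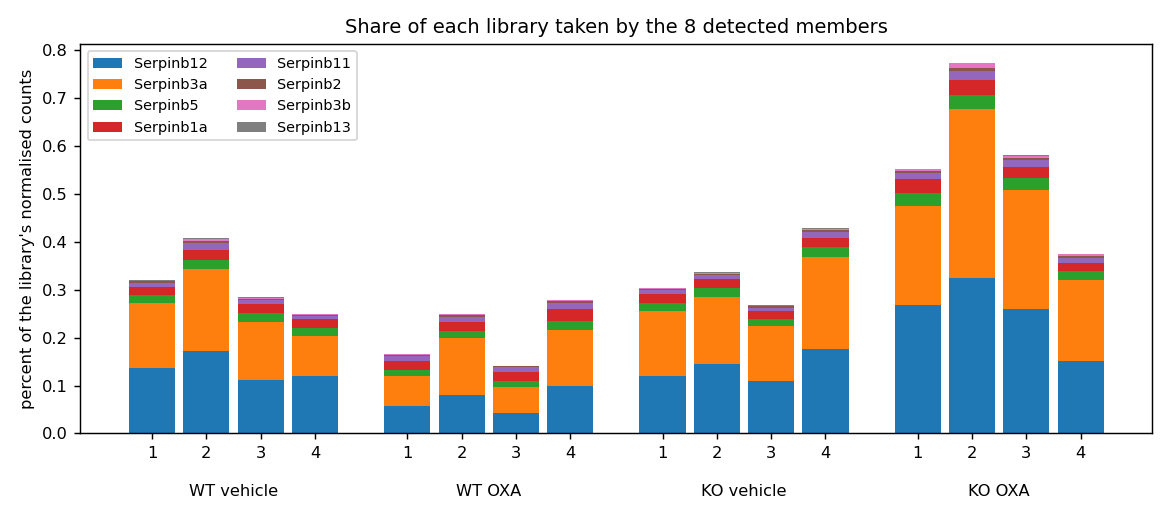
Percent of each library's normalised counts (vertical axis) taken by the 8 detected members, stacked by gene, for replicates 1 to 4 of each group (horizontal axis). The stacks are 0.142% to 0.279% in WT OXA and 0.375% to 0.774% in KO OXA, with KO OXA replicate 4 the shortest of its group.

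The members also moved together from library to library inside groups. Across the 16 libraries, Pearson's r of log2(normalised count + 1) was 0.967 for Serpinb12 and Serpinb5, 0.966 for Serpinb12 and Serpinb3a and 0.942 for Serpinb3a and Serpinb5. After the group means were taken off, pairs among the 7 members other than Serpinb13 still had r of 0.42 to 0.92, and Serpinb13 with them -0.04 to 0.49. These r describe 16 points that share 1 scaling per library and, for the Serpinb3 genes, possibly reads. The r after group means were taken off was not worked out for other genes, so it is not shown to be particular to these members. WT OXA replicate 4 was the highest of its group for 6 of the 8.

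By the same measure over the 16 libraries, the 3 genes outside clade B most like Serpinb12 were Eif2s1, Prelid3b and Tmem45a (r of 0.975, 0.972 and 0.972), and those most like Serpinb5 were Eif2s1, Chmp5 and Prelid3b (0.976, 0.968 and 0.968). Serpinb3a was most like Casp1, Nmd3 and Fam8a1 (0.958, 0.955 and 0.945), and Serpinb3b like Aadacl2, Sdr16c6 and Mocs2 (0.947, 0.913 and 0.898). Serpinb13 was most like Ada and the late cornified envelope genes Lce1a1 and Lce1k (0.992, 0.991 and 0.991). Serpinb1a was most like the proteasome genes Psmb3 and Psma4 and Mrpl30 (0.952, 0.951 and 0.949). Serpinb11 was most like Tmem123, Ttpal and Elovl4 (0.933, 0.919 and 0.917), and Serpinb2 like Tmigd1, Abca12 and Fam135a (0.937, 0.932 and 0.906). Each name is the top of correlations with every tested gene outside clade B that has a named symbol (no Gm number, Rik or clone name), over libraries that share their groups.

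Along chromosome 1 the effects of neighbours differed. The block holds 20 annotated genes, of which 13 are in the deposited table: the 9 members, Serpinb7, Serpinb8, the lincRNA Gm15391 (at most 0.36 in any library) and the snoRNA Gm24553 (0 in all). From the Serpinb5 end, the WT changes with OXA were -0.71 (Serpinb5), -1.31 (Serpinb12), -6.13 (Serpinb13), -0.90 (Serpinb3a), -0.60 (Serpinb3b), -0.11 (Serpinb11), -3.91 (Serpinb7), -0.07 (Serpinb2) and -1.88 (Serpinb8). Serpinb13 and Serpinb7, which fell most, are thus separated by genes that fell less or did not pass, on both strands.

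**Figure D4:**
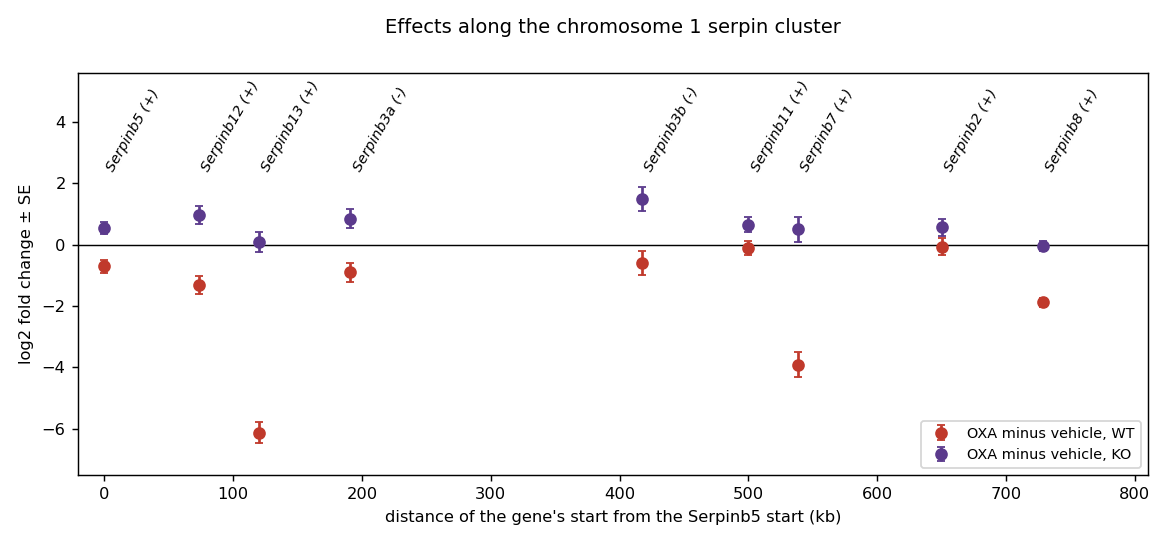
Log2 fold change ± SE of OXA against vehicle (vertical axis) in WT (red) and KO (purple) for the 9 tested clade B serpins of the chromosome 1 block, placed by the distance in kb of the gene's start in the deposited annotation from that of Serpinb5 (strand in brackets). Serpinb13 and Serpinb7 lie lowest in WT at -6.13 and -3.91; the RefSeq start of Serpinb3b is not at the end of its deposited gene span, so its plotted place depends on the annotation.

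Of the 16 other clade B serpins in the table, 8 could be tested. In WT 3 fell (Serpinb7, Serpinb8 and Serpinb6a) and 1 rose (Serpinb9), against 16% and 18% of all genes. Serpinb7, known as megsin and mutated in a form of palmoplantar keratosis, had mean normalised counts of 1847 ± 1003 in WT vehicle and 126 ± 66.8 in WT OXA against 1860 ± 374 and 2643 ± 597 in KO (SD, n = 4). Its changes were -3.91 ± 0.41 in WT (adjusted p = 8.02e-07) and 0.50 ± 0.41 in KO (adjusted p = 0.635), which differed by 4.41 ± 0.58 (adjusted p = 4.12e-05). Serpinb8, an inhibitor of furin, fell from 402 ± 28.7 to 108 ± 8.9 in WT (-1.88 ± 0.16, adjusted p = 5.43e-08) and was 518 ± 85.3 and 508 ± 95.2 in KO (-0.03 ± 0.16, adjusted p = 0.954). Serpinb6a fell by 0.99 in WT (adjusted p = 4.83e-04). Serpinb9, the inhibitor of granzyme B, rose from 88.9 ± 20.5 to 248 ± 45.5 in WT (1.48 ± 0.31, adjusted p = 9.49e-04), was 108 ± 37.5 and 217 ± 108 in KO (0.94 ± 0.31, adjusted p = 0.143), and its effects did not differ by the test (-0.54 ± 0.43, 95% interval -1.45 to 0.36, adjusted p = 0.420). Serpinb6b, Serpinb6c, Serpinb1b and Serpinb1c did not pass in WT (-0.51, 0.63, -0.26 and -0.46). The difference of effects passed with the higher value in KO for 4 of the 8, against 10.1% of all genes. These were Serpinb7, Serpinb8, Serpinb6a (1.09, adjusted p = 0.00791, and 0.34, adjusted p = 0.346, with quantile normalization) and Serpinb6b (1.57, adjusted p = 0.0249, and 1.13, adjusted p = 0.0613, with equal library totals). The Serpinb6b call was also lost without replicate 1 of WT OXA, 2 of KO vehicle or 1 of KO OXA (adjusted p = 0.0570 in each).

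Among 17 listed proteases and partners that clade B serpins are known to meet, 13 were tested, and in WT 4 rose and 3 fell, against 18% and 16% of all genes. Klk5, a kallikrein of cornifying epithelium, fell from 307 ± 55.3 to 6.41 ± 7.86 in WT (-6.05 ± 0.52, adjusted p = 5.40e-08) and was 391 ± 68.6 and 496 ± 41.9 in KO, with effects that differed by 6.41 ± 0.73 (adjusted p = 7.52e-06). Klk7 fell by 0.63 in WT (adjusted p = 0.0354), and its effects differed by 1.04 ± 0.32 (adjusted p = 0.0293). The cysteine cathepsin Ctss, a target of SERPINB3-type inhibitors, rose in both genotypes, by 1.81 ± 0.31 in WT and 2.26 ± 0.31 in KO (adjusted p = 1.62e-04 and 1.68e-04). So did Gzmb, the target of Serpinb9, by 4.43 ± 0.87 and 6.26 ± 0.87 (adjusted p = 6.53e-04 and 2.28e-04). Ctsf fell by 1.11 in WT (adjusted p = 0.0107) and the urokinase receptor Plaur rose by 1.284 ± 0.45 (adjusted p = 0.0334). The Ctsf and Klk7 calls in WT were lost with equal library totals (adjusted p = 0.0545 and 0.222), as was the Klk7 difference (0.59, adjusted p = 0.123). That difference was also lost with no filter (adjusted p = 0.0568) and in 7 of 16 fits without 1 library (adjusted p = 0.0513 to 0.0677). The Klk7 and Plaur calls in WT were lost with no filter (adjusted p = 0.0661 and 0.0727), the Ctsf and Plaur calls with thinned reads (0.0507 and 0.0798), and the Plaur call with quantile normalization (0.0522). Without 1 library the Klk7 call in WT was lost in 6 of 16 fits (replicates 1, 2 and 4 of the WT vehicle and 1, 2 and 3 of the WT OXA group), and the Plaur call in 5 (replicates 2 and 3, and 1, 2 and 3). Elane, neutrophil elastase, was at 0 in every library.

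Of 12 tested genes that are read as responses to IL-13, 7 rose and 2 fell in WT (18% and 16% of all genes) and 1 rose in KO (1.81%). The effects differed with the lower value in KO for 3 of the 12 (Chil4, Alox15 and Socs1), where 1284 of all 16748 genes did so. Of the 12 fitted differences, 5 were above 0. Chil4, a chitinase-like protein, rose from 1397 ± 1148 to 178991 ± 66194 in WT (7.42 ± 0.72, adjusted p = 2.98e-07) and by 1.46 ± 0.72 in KO (adjusted p = 0.371). Alox15, Socs1 and Ccl11 rose in WT by 6.66 ± 1.005, 2.83 ± 0.31 and 1.27 ± 0.20 (adjusted p = 5.03e-05, 1.23e-06 and 1.01e-04), and the Ccl11 effects did not differ by the test (-0.75 ± 0.29, adjusted p = 0.0784). Serpinb2, which belongs to this response in human airway, was not among the genes that passed in WT.

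Genes listed as markers of other cells gave mixed counts, where over all genes 18% rose and 16% fell in WT and 1.81% rose in KO. The effects passed with the lower value in KO for 1284 of 16748 genes. Wound keratinocyte genes (Krt6a, Krt6b, Krt16 and Krt17) rose in 4 of 4 in WT and 2 of 4 in KO, with effects lower in KO for 4 of 4. Of 7 basal genes, 2 rose and 3 fell in WT, and their sum was 36075 to 63844 in WT vehicle and 31713 to 48002 in WT OXA. Neutrophil genes rose in 5 of 7 tested in WT (1 fell), with sums of 428 to 1236 and 2431 to 3437, and T cell genes in 6 of 6, with sums of 26.8 to 127 and 324 to 502. The 6 airway genes were summed at 35762 to 54364 with vehicle and 622 to 1050 with OXA in WT, and at 25501 to 34077 and 17170 to 32854 in KO. That sum too was lowest in WT OXA. Of the 3 tested, Cyp2f2 and Scgb1a1 fell in WT (-5.62 ± 0.22 and -3.06 ± 0.50, adjusted p = 1.155e-12 and 1.06e-04). Sftpc did not pass (0.57 ± 1.05). Eosinophil genes were near 0 throughout and 0 of 5 could be tested (Epx at 0 in every library). Their sums were 0 to 2.23 with vehicle and 8.23 to 15.1 with OXA in WT, and 0.76 to 6.56 and 1.24 to 10.7 in KO. Mast cell genes rose in 1 of 5 tested in WT, and glandular stomach genes in 0 of 5. The part of these genes in the serpin values was not tested.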

How the data were processed

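RNA of 16 esophagus libraries was measured by CEL-Seq. Per the submitters' processing notes, the authors used FastQC 0.11.5, Trim Galore, cutadapt 1.10, TopHat2 2.1.0, Bowtie2 2.2.6, GRCm38, HTSeq 0.6.1 and DESeq2 1.28.0. Not given in the sources used here are the annotation release, the read length and whether molecular identifiers were used. Values are the signal the authors deposited: in each library, counts of genes over a single size factor. Whole reads were recovered from their steps (100% of values whole within 0.1 of a read) and gave the depth.

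Tests used limma 3.58.1 (R 4.3.3) with eBayes and a trend, 1 mean per group and 1 spread per gene. As alternatives, edgeR 4.0.16 with TMM scaling and quasi-likelihood, and DESeq2 1.42.0, were run on the recovered reads. Other alternatives were the pseudocount, the filter, the scaling, thinned reads, only the groups compared, and each library left out. The fit was tested on simulated data. Named genes were all 10 members, the clade B serpins, proteases and IL-13 genes with the smallest p in WT (up to 8, 6 and 4), and the 3 most correlated genes per member among those outside clade B with a named symbol. The members and gene lists were chosen with earlier results of these data known.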

Additional observations from a re-analysis of the deposited data

Results flagged for a closer look

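Of 32 pairs of a member and a group, 2 held a library far from the other 3 by Dixon's ratio. Serpinb3b had 599.6 in WT vehicle replicate 2, against 205 to 255 in the others of its group, where chance gives about 1 such library in 20 groups. Serpinb13 had a normalised count of 1.09, from 3 reads, in WT OXA replicate 1 and 0 in the other 3 libraries of its group; with 3 values tied at 0 any count above 0 gives the largest ratio, so this one says nothing about that library.

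The OXA effect differed between KO and WT by the interaction term for 6 members: 6.21 for Serpinb13, 2.27 for Serpinb12, 2.09 for Serpinb3b, 1.74 for Serpinb3a, 1.25 for Serpinb5 and 0.88 for Serpinb1a on the log2 scale. Serpinb13, Serpinb12, Serpinb3a and Serpinb5 also fell in WT, while Serpinb3b and Serpinb1a passed in neither genotype alone.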

How the results depend on the processing

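The calls of Serpinb13 and Serpinb12 in WT, in the interaction and between genotypes under OXA were kept under every alternative run, and those of Serpinb3b and Serpinb5 in the last 2 comparisons were too. No paired analysis was possible because the labels number no replicates across groups. Few reads limit the size of the Serpinb13 change, with 0 to 149 reads per library. Its values of 0 lay in WT OXA, the deepest group. Serpinb3c and Serpinb3d had no reads.

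With equal library totals, 2 members fell in WT and 5 were higher in KO under OXA. The other values that turned sign had not passed in the first place. With equal library totals these were, in WT, Serpinb1a at 0.13, Serpinb2 at 0.25, Serpinb11 at 0.21 and Serpinb1b at 0.051, in KO, Serpinb13 at -0.033 and Serpinb6a at -0.022, and between genotypes under vehicle, Serpinb5 at 0.0058 and Serpinb12 at 0.025. With quantile normalization they were Serpinb6a in KO at -0.15, and Serpinb5 at 0.037 and Serpinb12 at 0.16 under vehicle. Thinned reads put Serpinb13 in KO at -0.057. Under vehicle, edgeR put Serpinb11 at -0.0071 and Serpinb12 at 0.00016, and DESeq2 put Serpinb11 at -0.0080. In KO, Serpinb3b rose with only the groups compared (limma, adjusted p = 0.0483). With edgeR 1 member rose, against 2.23% of all genes, and with DESeq2 3 did, against 4.42%. For the summed Serpinb3 genes the WT change was -0.89 with no filter (adjusted p = 0.0763), -0.57 when library totals were made equal and -0.36 with quantile normalization, and the interaction was 0.96 with quantile normalization.

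Leaving out 1 library at a time gave 0 to 6 members that rose in KO, with 6 only without KO OXA replicate 4, which was noticed by its low values for these genes. It gave 1, Serpinb3b, when any of 4 others was left out, namely replicates 2 and 4 of WT vehicle, replicate 3 of WT OXA and replicate 4 of KO vehicle. The sum of Serpinb3 genes then ranged from -1.09 to -0.67 in WT, 0.71 to 1.08 in KO and -0.032 to 0.33 between genotypes under vehicle. Single genes crossed 0 in WT for Serpinb2 (-0.32 to 0.18), Serpinb11 (-0.25 to 0.13), Serpinb1b (-0.63 to 0.016) and Serpinb1c (-0.997 to 0.14), and in KO for Serpinb13 (-0.044 to 0.18) and Serpinb8 (-0.13 to 0.069). Under vehicle they did for Serpinb2 (-0.051 to 0.46), Serpinb3a (-0.025 to 0.33), Serpinb3b (-0.47 to 0.11), Serpinb5 (-0.12 to 0.055), Serpinb11 (-0.13 to 0.28) and Serpinb12 (-0.15 to 0.12). The cause of these changes was not tested.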
